A study of Sus scrofa with 48 samples.

Results

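The expression of 9 genes of troponin and tropomyosin was described in the longissimus muscle of 48 pigs. Both proteins lie on the actin filament of the sarcomere and make contraction depend on calcium. Troponin C binds calcium, troponin I holds back the interaction of actin with myosin, and troponin T fastens the complex to tropomyosin. Slow and fast muscle fibres carry different versions of these proteins, and the pig longissimus is known as a mainly fast, glycolytic muscle in which slow fibres are a minority. The genes of slow fibres are TNNT1 (troponin T), TNNI1 (troponin I), TNNC1 (troponin C, used in heart muscle too) and TPM3 (tropomyosin). Those of fast fibres are TNNT3, TNNI2, TNNC2 and TPM1, in the same order, and TPM2 encodes the beta tropomyosin found in both fibre types.

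The pigs were barrows, that is castrated males, of purebred Large White lines selected in opposite directions for residual feed intake (RFI), the feed a pig eats beyond what its growth and body composition predict. Low RFI pigs (RFIneg) eat less than predicted and high RFI pigs (RFIpl) eat more. Pigs of each line had free access to feed rich in fat and fiber (HF) or to feed of standard composition, labelled low fat (LF). This gave 4 groups of 12: low RFI HF, high RFI HF, low RFI LF and high RFI LF. Each pig was measured on its own one-colour array. No unselected line was measured, so a line difference does not tell which line moved.

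The members were found by name. A probe, a DNA sequence of 60 bases fixed on the array, was taken when its gene name, or the symbol in brackets in its description, was one of the 9 symbols. This gave all 9 genes, of 8868 gene symbols with a tested probe, and 62 of the 60305 distinct probes that are not controls. All 62 were well above background on 48 of 48 arrays, so none was lost to the minimum of 12 arrays, which left 42125 probes for testing. TNNT1 had 5 probes, TNNI1 had 4, TNNC1 had 2, TPM3 had 8, TNNT3 had 5, TNNI2 had 3, TNNC2 had 6, TPM1 had 23 and TPM2 had 6. Each gene was followed at its main probe, the one with the highest mean signal over the 48 arrays. Levels are the log2 of the processed signal minus the mean of the array over the tested probes, and differences are on the same log2 scale. The level of one probe cannot be set against that of another, because probes bind with different strength.

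The median processed signal of an array ranged from 52.8 to 107.9, between 59.2% and 74.2% of probes exceeded background clearly, and no spot reached saturation. Each of 6 slides held 2 arrays of every group. The array with the highest median signal was that of high RFI HF pig number 10, counted in the listed order of the samples. It also gave the lowest of the 48 values at the main probes of TNNI2, TNNC2, TPM1 and TNNC1, so counts are given with and without it. The skeletal muscle markers ACTA1, CKM, DES, TTN and MB had main probes at or above percentile 86.6 of mean signal. In bulk muscle, fewer fibres of a type and less RNA per fibre cannot be told apart.

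Several probes decide what the values stand for, and their sequences are shown 5′ to 3′ for that reason. The main probe of the slow gene TNNC1 could be laid without gaps over a probe of its fast counterpart TNNC2. In the overlap of 45 bases, 39 were identical (86.7%), and the 6 aligned bases that differ are in capitals. The other TNNC1 probe, O8757, reached at most 56.2% identity, over 32 bases, with a TNNC2 probe.
TNNC1 main probe: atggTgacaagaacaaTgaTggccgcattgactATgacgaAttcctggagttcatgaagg
TNNC2 probe A_72_P165811: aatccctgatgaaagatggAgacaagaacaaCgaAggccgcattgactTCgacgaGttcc
TNNC1 probe O8757: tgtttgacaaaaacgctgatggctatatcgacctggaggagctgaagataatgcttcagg

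Fast troponin T is known to be spliced with either of a pair of mutually exclusive exons near its carboxyl end. The main probe of TNNT3 and its probe O12914 shared 2 runs of 12 bases, in capitals, with different sequence between the runs. No gene model was used here to place them, and whether they read these exons was not tested.
TNNT3 main probe: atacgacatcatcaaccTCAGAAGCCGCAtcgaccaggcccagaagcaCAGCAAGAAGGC
TNNT3 probe O12914: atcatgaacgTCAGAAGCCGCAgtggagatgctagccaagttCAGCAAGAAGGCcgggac

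One TNNC2 probe, A_72_P070111, reads the opposite strand. Its 16 bases in capitals are the reverse complement of the 16 in capitals in A_72_P611718, so these 2 probes bind opposite strands. Strand was compared only between probes of the same gene. O14248 of TNNI1 and O610 of TPM2 have no overlapping partner and may also read the opposite strand, which was not tested.
TNNC2 probe A_72_P070111: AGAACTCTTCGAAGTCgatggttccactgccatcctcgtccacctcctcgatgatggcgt
TNNC2 probe A_72_P611718: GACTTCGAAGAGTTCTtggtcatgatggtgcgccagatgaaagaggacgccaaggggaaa

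A further set of probes carries the line differences of TNNI2 and TNNT3 and is shown, in lower case throughout, so that these differences can be traced to sequence.
TNNI2 main probe: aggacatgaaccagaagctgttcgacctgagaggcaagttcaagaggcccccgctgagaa
TNNI2 probe O11229: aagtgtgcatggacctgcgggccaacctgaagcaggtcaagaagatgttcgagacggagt
TNNT3 probe A_72_P535015: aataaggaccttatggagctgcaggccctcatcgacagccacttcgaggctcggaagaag
TNNT3 probe A_72_P538200: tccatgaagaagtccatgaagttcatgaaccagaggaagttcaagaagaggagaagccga

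Lower levels in the high RFI line were found at all 3 probes of TNNI2, 3 of 5 of TNNT3, 1 of 6 of TNNC2 (the probe of the opposite strand) and 5 of 23 of TPM1, and at no probe of a slow gene. Of these 4 fast genes, the main probe passed only for TNNI2, and after quantile normalization no probe of TNNI2 or TPM1 passed. The line difference is high RFI minus low RFI, averaged over both diets and tested with limma, with Benjamini-Hochberg adjustment over all 42125 probes and a threshold of 0.05. Of the 37 probes of the fast genes, 12 were lower in high RFI pigs and 0 were higher, against 0 of the 19 probes of the slow genes and 0 of the 6 probes of TPM2. Several probes of the same gene overlap in sequence, so these counts are not counts of independent readings. Over all tested probes, 16.4% passed in either direction and 9.85% were lower in the high RFI line. Of the 37 probes, 34 lay above percentile 99 of mean signal, and 10 of these (29.4%) were lower, against 38.2% of all probes as bright, so the count is no larger than that of bright probes in general. The median line difference was −0.11 over the 37 probes, −0.016 over the 19 probes, −0.029 over all tested probes and −0.11 over those above percentile 99. Whether the line difference itself differed between fast and slow genes was not tested. Without the array of the highest median signal, 9 of the 62 passed.

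Troponin I of fast fibres, TNNI2, was lower in high RFI pigs at all 3 of its probes. At the main probe, the level ranged from 9.63 to 10.17 with a median of 9.93 in low RFI HF pigs and from 9.30 to 9.94 with a median of 9.79 in high RFI HF pigs. Among LF pigs, it ranged from 9.78 to 10.09 with a median of 9.85 in the low RFI line and from 9.60 to 9.91 with a median of 9.75 in the high RFI line. The lines overlapped on both diets, but 20 of the 24 high RFI pigs lay below the median of the low RFI pigs. The difference was −0.15 (SE 0.044, adjusted p = 0.016 in limma), a level 9.76% lower. It was −0.15 at A_72_P585911 and −0.18 at O11229, with adjusted p = 0.017 and 0.0067. The main probe and A_72_P585911 start at bases 325 and 328 of the same transcript and share most of their sequence. They are not independent readings. The difference at the main probe was negative on 5 of 6 slides, and was −0.13 on the first scan day and −0.17 on the second.

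Troponin T of fast fibres, TNNT3, was lower in high RFI pigs at 3 of its 5 probes. At A_72_P535015, low RFI HF pigs ranged from 8.86 to 9.30 with a median of 9.12, and high RFI HF pigs from 8.47 to 9.09 with a median of 8.93. With LF feed, low RFI pigs ranged from 8.95 to 9.23 with a median of 9.07 and high RFI pigs from 8.70 to 8.99 with a median of 8.89. In the LF groups the lines met only at the ends of their ranges, and 23 of 24 high RFI pigs lay below the median of the low RFI line. The difference was −0.21 (SE 0.041, adjusted p = 0.00031 in limma), a level 13.7% lower. It was −0.20 with HF and −0.22 with LF, with adjusted p = 0.028 and 0.027. At A_72_P538200 the difference was −0.22 (adjusted p = 0.0015) and at A_72_P574589 it was −0.22 (adjusted p = 0.00028). These 3 probes had a negative difference on 6 of 6 slides each. A_72_P574589 and A_72_P535015 start at bases 202 and 240 of the same transcript and overlap in part.

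The 2 TNNT3 probes with common runs had negative differences whose call depended on the setting. The main probe gave −0.14 (SE 0.056, adjusted p = 0.082) and O12914 gave −0.20 (SE 0.071, adjusted p = 0.051). Each slide held 2 arrays of every group, and with slide as a fixed block in limma the adjusted p was 0.040 and 0.039, so that all 5 TNNT3 probes passed. O12914 passed in 5 of the 11 alternatives that refit the arrays and the main probe in 1 of them. The SD between pigs of a group was 0.25 at O12914 and 0.13 at A_72_P535015. On the HF diet the main probe ranged from 9.58 to 10.31 with a median of 10.01 in low RFI pigs and from 9.67 to 10.19 with a median of 9.85 in high RFI pigs. With LF feed it ranged from 9.58 to 10.15 with a median of 9.92 in low RFI pigs and from 9.45 to 10.11 with a median of 9.73 in high RFI pigs. The ranges of the lines overlapped on both diets.

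Troponin C of fast fibres, TNNC2, had negative line differences at all 6 probes, from −0.18 to −0.069, and was lower past the threshold at 1 of them. That probe was A_72_P070111, of the opposite strand (difference −0.18, SE 0.048, adjusted p = 0.0088 in limma). None of the other 5 probes passed, with adjusted p from 0.095 to 0.27 in limma, so the TNNC2 call rests on the opposite-strand probe alone. The values of A_72_P070111 are given first. This probe ranged from 2.50 to 3.16 with a median of 2.90 in low RFI HF pigs and from 2.22 to 2.79 with a median of 2.61 in high RFI HF pigs. For LF pigs it ranged from 2.46 to 2.89 with a median of 2.80 in low RFI pigs and from 2.53 to 2.89 with a median of 2.67 in high RFI pigs. The values of the lines overlapped, and 23 of 24 high RFI pigs lay below the low RFI median. It had r from 0.427 to 0.622 with the other 5 probes over the 48 pigs.

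At the main probe of TNNC2, low RFI HF pigs ranged from 10.35 to 10.85 with a median of 10.65, and high RFI HF pigs from 10.19 to 10.70 with a median of 10.48. Under LF feeding, low RFI pigs ranged from 10.41 to 10.88 with a median of 10.59 and high RFI pigs from 10.32 to 10.74 with a median of 10.52. The groups overlapped, 17 of 24 high RFI pigs lay below the low RFI median, and the difference was −0.10 (SE 0.044, adjusted p = 0.095).

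Tropomyosin of fast fibres, TPM1, was lower in high RFI pigs at 5 of its 23 probes, or 11 with slide as a fixed block, and 22 of the 23 differences were negative. They ranged from −0.12 to 0.0025 with a median of −0.10, and the lowest was that of A_72_P752169 (SE 0.040, adjusted p = 0.029 in limma). Many of the 23 probes overlap, such as those starting at bases 829, 832 and 837 of one transcript, so they are not independent readings. The main probe did not pass (−0.086, SE 0.048, adjusted p = 0.22). Its level ranged from 10.22 to 10.85 with a median of 10.58 in low RFI HF pigs and from 10.04 to 10.62 with a median of 10.42 in high RFI HF pigs. Among LF pigs it ranged from 10.31 to 10.65 with a median of 10.49 in low RFI pigs and from 10.22 to 10.70 with a median of 10.48 in high RFI pigs. The lines overlapped throughout. The probe with a positive difference, A_72_P255182, lay at percentile 88.1 of signal, and its r with the other 22 ranged from −0.183 to 0.006, whereas r among these 22 ranged from 0.596 to 0.975.

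**Figure D1:**
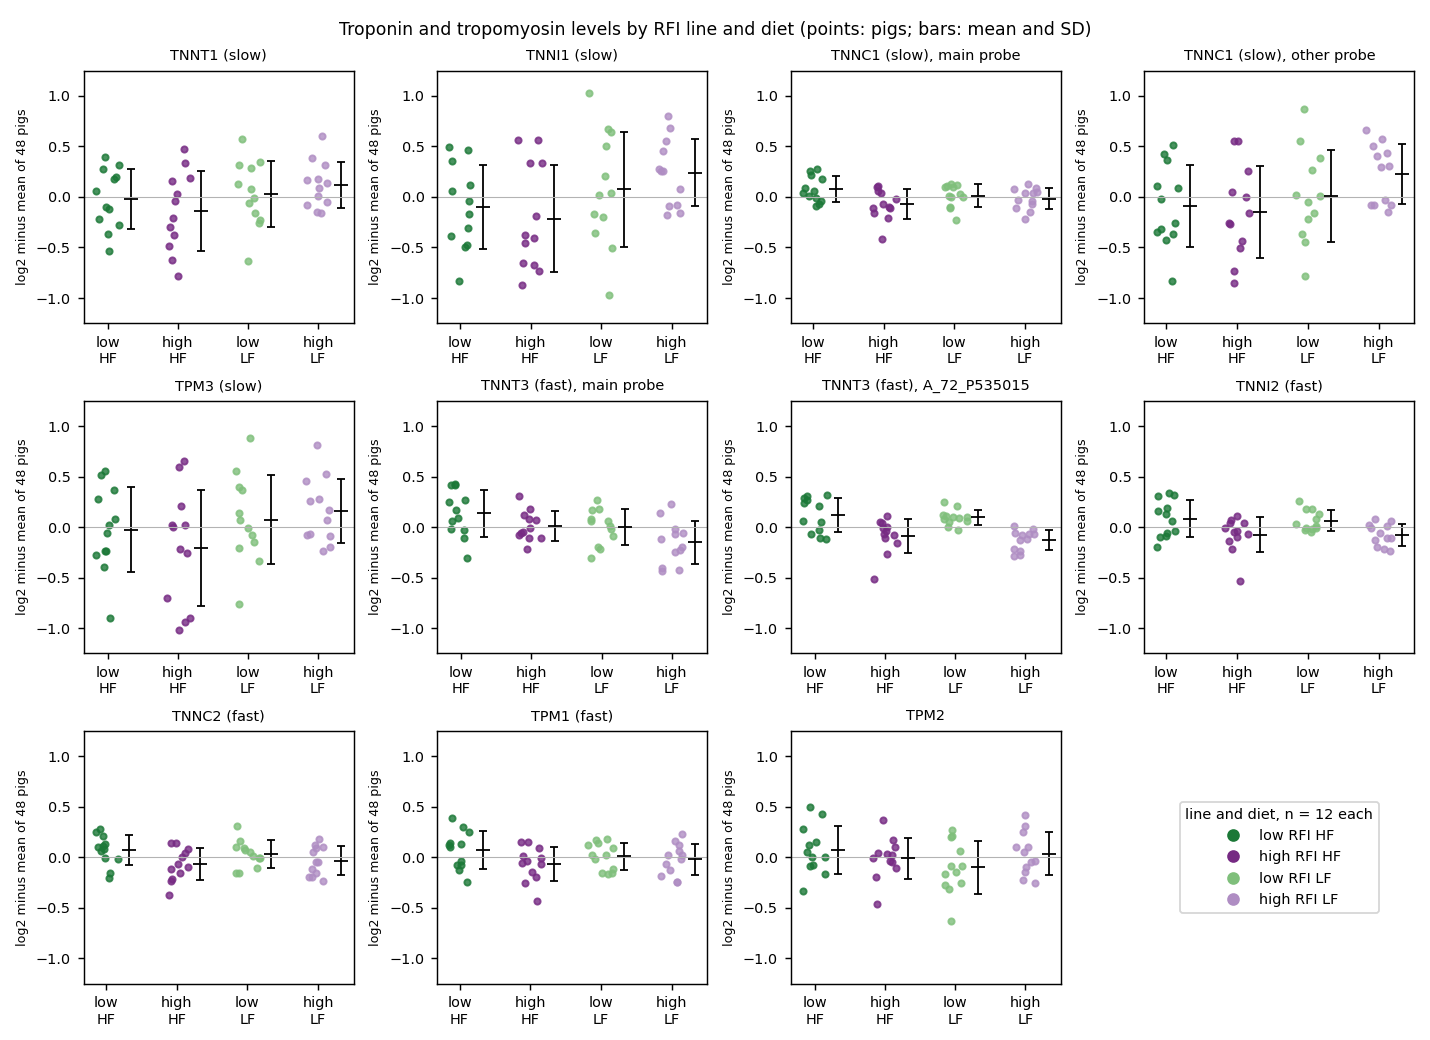
Level of each gene in every pig, as log2 signal minus the mean of that probe over the 48 pigs (y axis), in the 4 groups of 12 (x axis); points are pigs, and bars are the group mean and SD. The slow genes TNNT1, TNNI1 and TPM3 spread over a wider range than the fast genes, and the high RFI points of TNNI2 lie mostly below the low RFI points.

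The fast genes were among the brightest of the array, and bright probes as a class had lower values in high RFI pigs. Of the 422 tested probes above percentile 99 of signal, 161 (38.2%) were lower and 0 were higher, with a median line difference of −0.11. Over all 37 probes of the fast genes, 23 of them of TPM1, the share was 32.4%. After quantile normalization, which gives every array the same distribution of signals, the median of the bright probes was 8.1e-05. The main probe of TNNI2 then gave −0.036 (adjusted p = 0.33), and no probe of TNNI2 or TPM1 passed. The 3 TNNT3 probes A_72_P535015, A_72_P538200 and A_72_P574589 gave −0.094, −0.15 and −0.10 and passed, with adjusted p = 0.030, 0.0079 and 0.013. A_72_P070111 of TNNC2, the opposite-strand probe, gave −0.16 (adjusted p = 0.023). A_72_P538200 lay at percentile 96.3 of signal and A_72_P070111 at percentile 80.7, outside the brightest class.

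**Figure D2:**
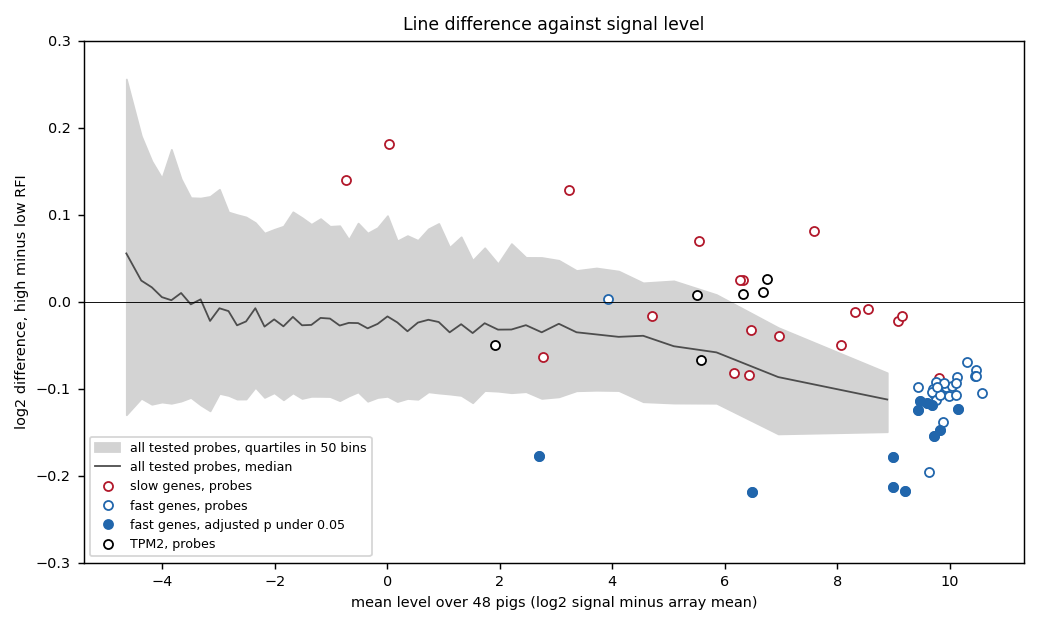
Line difference (high RFI minus low RFI, log2, y axis) of the 62 probes against their mean level over 48 pigs (log2 signal minus array mean, x axis), over the median and quartiles of all tested probes in 50 bins of level. The median of all tested probes is lower among the brightest probes, and A_72_P538200 of TNNT3 (−0.22) and A_72_P070111 of TNNC2 (−0.18) lie below the quartiles of their bins.

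Among the slow genes, TNNT1, TNNI1 and TPM3 had line differences smaller than their SEs. Troponin T of slow fibres, TNNT1, had a difference of −0.016 (95% interval −0.20 to 0.17, adjusted p = 0.93 in limma). Its level ranged from 8.62 to 9.54 with a median of 9.13 in low RFI HF pigs and from 8.36 to 9.63 with a median of 9.02 in high RFI HF pigs. On the LF diet it ranged from 8.52 to 9.72 with a median of 9.18 in low RFI pigs and from 8.99 to 9.76 with a median of 9.26 in high RFI pigs. All groups overlapped, and 12 of 24 high RFI pigs lay below the median of the low RFI line. The 5 probes differed between lines by −0.040 to −0.0079, and the main probe has the same sequence as one of the others.

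Troponin I of slow fibres, TNNI1, had a line difference of 0.024 (95% interval −0.24 to 0.29, adjusted p = 0.93 in limma). It ranged from 5.48 to 6.81 with a median of 6.21 in low RFI HF pigs and from 5.44 to 6.88 with a median of 5.93 in high RFI HF pigs. In the LF groups it ranged from 5.35 to 7.35 with a median of 6.34 in low RFI pigs and from 6.14 to 7.11 with a median of 6.57 in high RFI pigs. The highest and the lowest of the 48 values both came from low RFI LF pigs and differed 4.0-fold. Of its 4 probes, 3 had r from 0.991 to 0.998 with each other, a pair of them with identical sequence. O14248, whose strand was not tested, had r from 0.440 to 0.447 with these.

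Tropomyosin of slow fibres, TPM3, had a line difference of −0.050 (95% interval −0.30 to 0.20, adjusted p = 0.82 in limma) at its main probe. The level ranged from 7.17 to 8.62 with a median of 8.05 in low RFI HF pigs and from 7.05 to 8.72 with a median of 7.96 in high RFI HF pigs. Under LF feeding it ranged from 7.31 to 8.95 with a median of 8.10 in low RFI pigs and from 7.83 to 8.88 with a median of 8.18 in high RFI pigs. The groups overlapped. The 8 probes fell into a set of 5 and a set of 3, chosen after their values were seen. Over the 48 pigs, r ranged from 0.959 to 0.994 within the 5, from 0.841 to 0.886 within the 3 and from 0.261 to 0.397 between the sets. The 3 (A_72_P256442, A_72_P302934 and A_72_P649261) had positive line differences of 0.13, 0.18 and 0.14 and the 5 had negative ones, and none passed the threshold. The sets also differed in signal. The 3 lay at percentiles 84.2, 55.3 and 46.4 of signal in that order, and the 5 lay between 91.6 and 98.4.

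Beta tropomyosin, TPM2, had a line difference of 0.027 (95% interval −0.11 to 0.16, adjusted p = 0.82 in limma), and from −0.068 to 0.027 over its 6 probes. It ranged from 6.41 to 7.24 with a median of 6.77 in low RFI HF pigs and from 6.29 to 7.11 with a median of 6.75 in high RFI HF pigs. For LF pigs it ranged from 6.11 to 7.02 with a median of 6.62 in low RFI pigs and from 6.49 to 7.16 with a median of 6.75 in high RFI pigs. The lowest median and the lowest pig were in the low RFI LF group, and all groups overlapped.

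TNNC1, the troponin C of slow fibres and heart, gave values of opposite sign at its 2 probes. The main probe, which resembles TNNC2, had a line difference of −0.088 (SE 0.038, adjusted p = 0.10), and O8757 had 0.082 (SE 0.12, adjusted p = 0.67 in limma). The main probe ranged from 9.71 to 10.08 with a median of 9.85 in low RFI HF pigs and from 9.39 to 9.91 with a median of 9.72 in high RFI HF pigs. On the LF diet it ranged from 9.58 to 9.93 with a median of 9.82 in low RFI pigs and from 9.59 to 9.93 with a median of 9.81 in high RFI pigs. The groups overlapped at this probe.

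O8757 covered a wider span of values. On the HF diet it ranged from 6.75 to 8.09 with a median of 7.45 in low RFI pigs and from 6.73 to 8.14 with a median of 7.37 in high RFI pigs. Among LF pigs it ranged from 6.80 to 8.45 with a median of 7.56 in low RFI pigs and from 7.43 to 8.25 with a median of 7.89 in high RFI pigs. The highest of the 48 pigs exceeded the lowest 1.61-fold at the main probe and 3.28-fold at O8757.

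**Figure D3:**
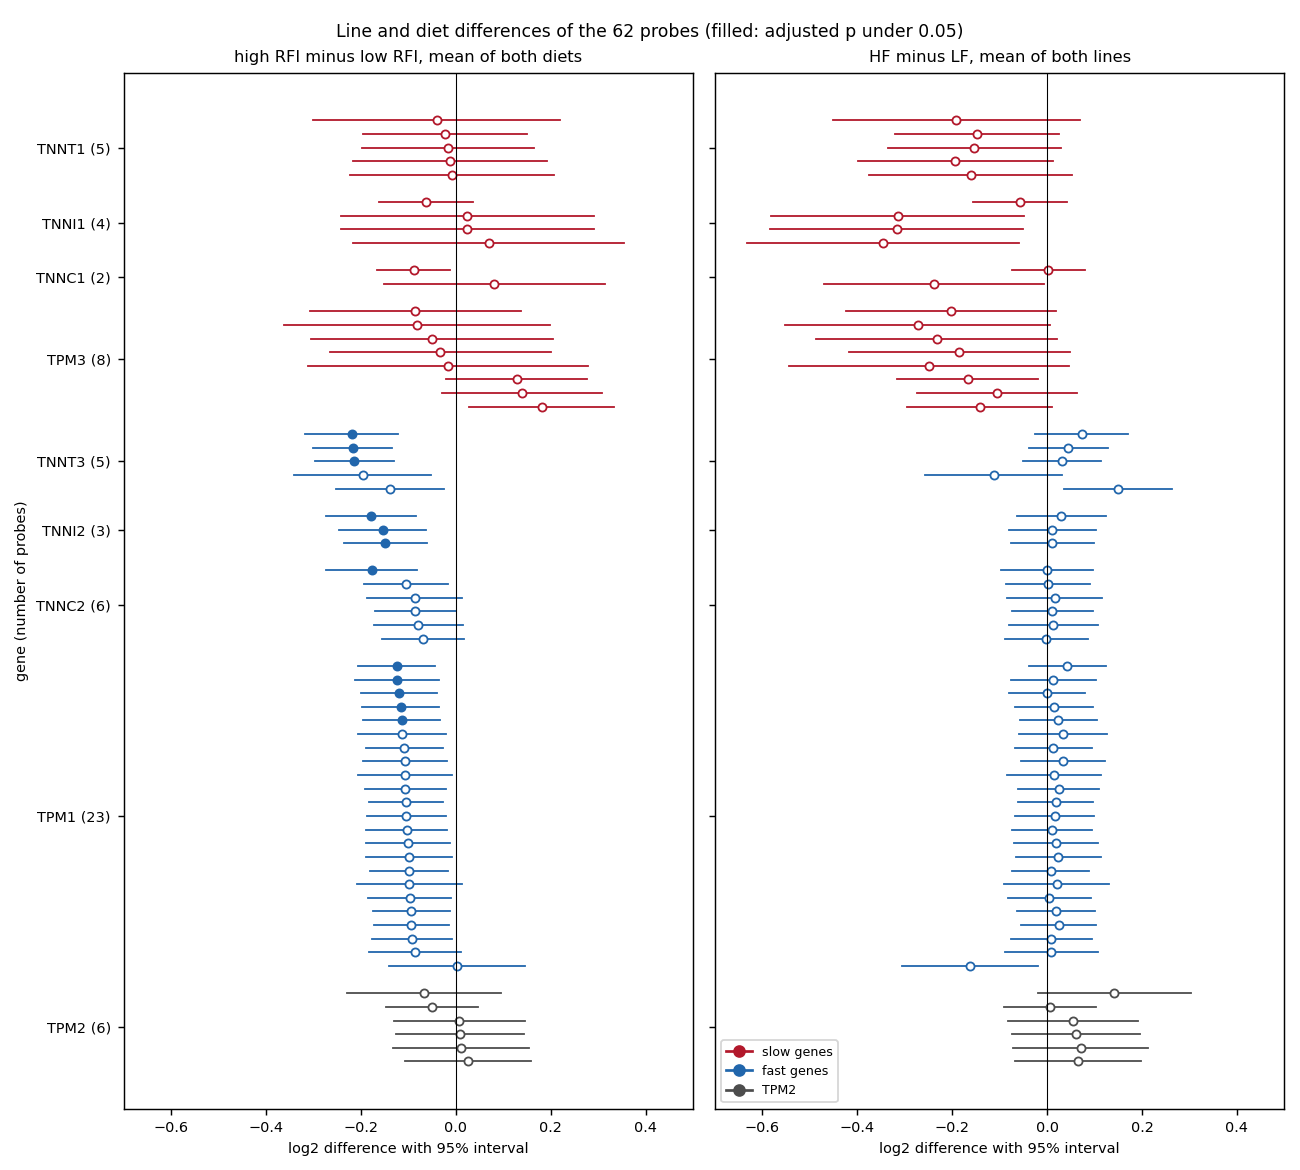
Line difference (left) and diet difference (right) of each of the 62 probes, as log2 difference with its 95% interval on the x axis, by gene on the y axis; filled points had an adjusted p under 0.05. The 12 filled points belong to fast genes and to the line difference.

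At their main probes, TNNT1, TNNI1 and TPM3 varied more between pigs of the same group than the fast genes. The SD within groups at the main probe was 0.32 for TNNT1, 0.47 for TNNI1 and 0.45 for TPM3. It was 0.15 for TNNI2, 0.15 for TNNC2, 0.16 for TPM1 and 0.19 for TNNT3, and 0.26 was the median of all tested probes. TPM2 lay between, at 0.23. For TNNC1 it was 0.12 at the main probe, below the fast genes, and 0.41 at O8757, among the slow ones. Signal level differed as well. The fast main probes lay at or above percentile 99.7 of signal. Those of TNNT1, TNNI1 and TPM3 lay at 99.2, 96.0 and 98.4. Within TNNT1, the SD was 0.30 at percentile 99.2 (A_72_P232362) and 0.46 at percentile 97.1 (A_72_P744922). MYH7, the slow myosin heavy chain, had an SD of 0.21 at percentile 99.5. A_72_P538200 of TNNT3 had 0.16 at percentile 96.3. The difference in spread, and the part of signal level in it, were not tested.

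Levels of the slow genes, and of the fast genes, were correlated across the 48 pigs. The pairs named here were chosen after their values were seen, so r and rho are given as a description with no test, and all arrays share one way of centring. TNNT1 and TNNI1 had r = 0.940 (rho = 0.938), TNNT1 and TPM3 had r = 0.951 (rho = 0.945), and TNNI1 and O8757 of TNNC1 had r = 0.970 (rho = 0.967). Among the fast genes, TNNI2 had r = 0.801 with TNNC2 (rho = 0.755) and r = 0.892 with A_72_P535015 of TNNT3 (rho = 0.805), but r = 0.625 with the TNNT3 main probe. Without the 2 pigs farthest from the median of the first gene, r was 0.932, 0.942, 0.964, 0.750 and 0.85 in the order named. Within a scan day, r of these pairs lay between 0.703 and 0.974. Over all 6 pairs of TNNT1, TNNI1, TPM3 and O8757, r ranged from 0.933 to 0.970, and over all 6 pairs of the main probes of TNNI2, TNNC2, TPM1 and TNNT3 from 0.447 to 0.801.

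The TNNC1 main probe followed the fast genes. It had r = 0.85 with TNNC2 (rho = 0.810), and 0.808 without the 2 farthest pigs. With TNNI1 it had r = −0.011 (rho = 0.012). With O8757 of its own gene it had r = 0.028 (rho = 0.015). On the 2 scan days, r with TNNC2 was 0.826 and 0.880, and r with O8757 was −0.024 and 0.003. The TNNC1 main probe lay at percentile 99.7 of signal, as bright as the fast genes. Its r with TNNI2 was 0.852. The mean of the 3 fast troponins had r = 0.846 with a probe of the mitochondrial gene CYTB. With the fast mean, values of r of this size were thus not confined to fast genes. The r of the TNNC1 main probe with CYTB is not given here. Whether RNA of TNNC2 binds to the TNNC1 main probe was not tested.

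**Figure D4:**
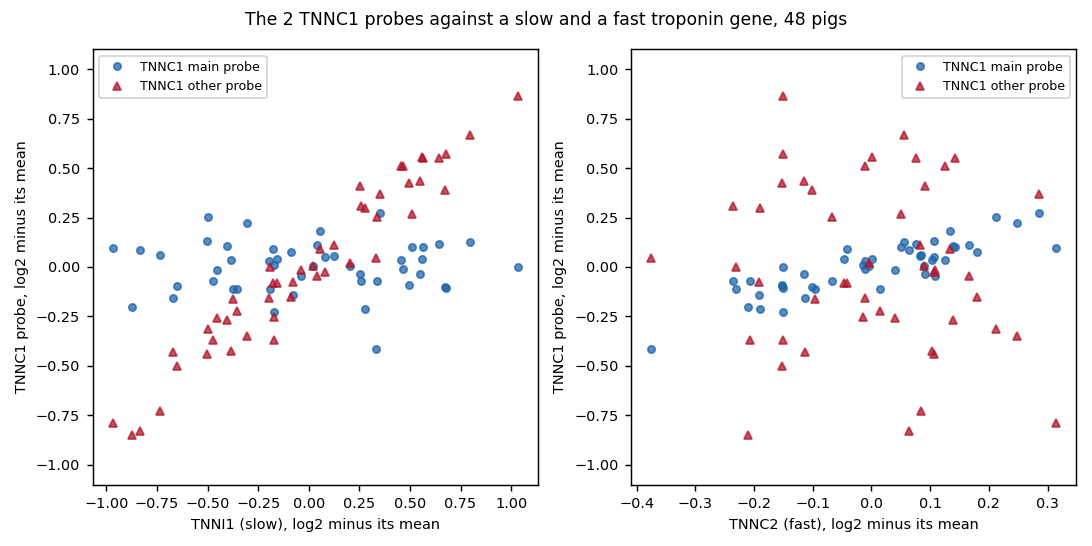
The 2 probes of TNNC1 (log2 minus the mean of the probe, y axis) against the slow gene TNNI1 (left) and the fast gene TNNC2 (right), on the x axes as log2 minus the mean of the probe; each point is 1 of the 48 pigs. O8757 rises with TNNI1 (r = 0.970) and the main probe rises with TNNC2 (r = 0.85).

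The 2 TNNT3 probes with common runs were weakly correlated. They had r = 0.194 (rho = 0.272), 0.106 without the 2 farthest pigs, and 0.259 and 0.127 on the scan days. The 3 TNNT3 probes lower in high RFI pigs had r from 0.875 to 0.928 with each other. The main probe of TPM3 and A_72_P302934 had r = 0.310 (rho = 0.444), 0.280 without the 2 farthest pigs, and 0.446 and 0.214 on the scan days.

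The mean of the 3 slow troponins with O8757 and the mean of the 3 fast troponins, each gene first centred over the 48 pigs, had r = −0.213 (rho = −0.174). Without the 2 farthest pigs r was −0.278, and on the scan days it was −0.183 and −0.286. With the TNNC1 main probe in the slow mean, r was −0.051.

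**Figure D5:**
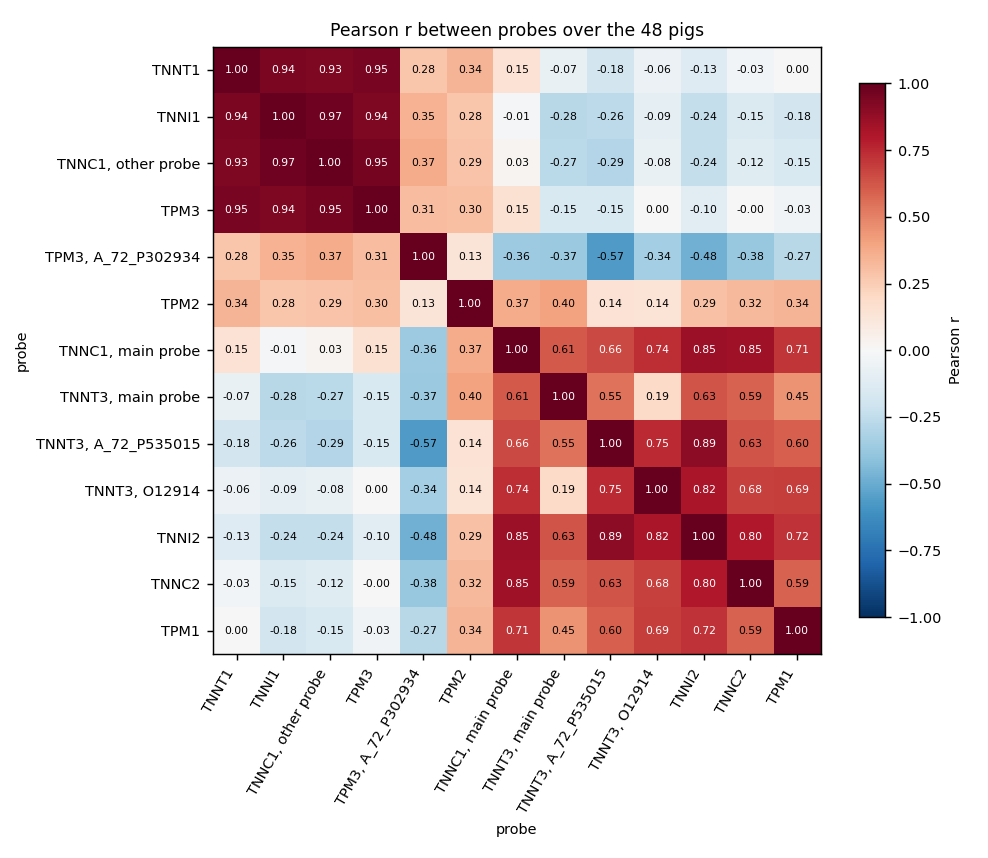
Pearson r over the 48 pigs between probes of the 9 genes, with the probes on both axes and r as colour and number. The slow genes with O8757 of TNNC1 form one block (r from 0.933 to 0.970), and the TNNC1 main probe stands with the fast genes.

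The diets gave no difference past the threshold at any of the 62 probes. The diet difference is HF minus LF, averaged over both lines, and 0.42% of all tested probes passed. Within the low RFI line 0 of 62 passed, against 0.199% of all probes, and within the high RFI line 0 of 62, against 0% of all probes. In limma, an unadjusted p under 0.05 was reached by 7 of 62 probes for the average over lines, by 2 in the low RFI line and by 9 in the high RFI line. Over all tested probes that share was 13.1%, 11.6% and 5.47%, and over the 62 it was 11.3%, 3.2% and 14.5%. A variance analysis without moderation also gave 0 after adjustment in each.

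The slow genes had negative diet differences at 18 of 19 probes, the exception being the TNNC1 main probe, and none passed the threshold. These 19 probes are not independent. TNNT1 and TNNI1 each have a pair of probes with identical sequence, and r among TNNT1, TNNI1, TPM3 and O8757 ranged from 0.933 to 0.970. The median diet difference of the 19 was −0.19, against 0.0019 over all tested probes. TNNI1 had −0.31 (95% interval −0.58 to −0.048, unadjusted p = 0.022, adjusted p = 0.28 in limma), and 17 of 24 HF pigs lay below the median of the LF pigs. TPM3 had −0.23 (adjusted p = 0.44), TNNT1 had −0.15 (adjusted p = 0.49) and O8757 of TNNC1 had −0.24 (adjusted p = 0.37). In the high RFI line these differences were −0.45 for TNNI1, −0.37 for TPM3, −0.26 for TNNT1 and −0.38 for O8757. In the low RFI line they were −0.18, −0.10, −0.048 and −0.10 in the same order. The interaction of line and diet, which tests whether the 2 differ, passed at 0 of 62 probes in limma and at 0% of all probes, with 2 of the 62 at an unadjusted p under 0.05, where 4.45% of all probes lay, and 0 after adjustment without moderation.

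Among the fast genes, the TNNT3 main probe had a diet difference of 0.15 (95% interval 0.036 to 0.26, unadjusted p = 0.011, adjusted p = 0.22 in limma). O12914 of the same gene gave −0.11 (adjusted p = 0.53), and A_72_P535015, A_72_P538200 and A_72_P574589 gave 0.031, 0.073 and 0.045. The main probe gave 0.011 for TNNI2, 0.0013 for TNNC2, 0.0089 for TPM1 and 0.064 for TPM2, each smaller than its SE.

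Split by diet, the line difference passed at 4 of 62 probes on the HF diet (6.5%), where 6.39% of all probes passed, and at 3 of 62 on the LF diet (4.8%), where 2.47% did. On the HF diet the 4 were A_72_P070111 of TNNC2 (−0.28), O11229 of TNNI2 (−0.22) and A_72_P535015 and A_72_P574589 of TNNT3 (−0.20 and −0.21). With LF feed they were A_72_P535015, A_72_P538200 and A_72_P574589 of TNNT3, with −0.22, −0.25 and −0.22. Without the array of the highest median signal, 2 probes passed with HF and 3 with LF.

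Other genes of the thin filament, from a list of 19, were followed at their main probes. Of the 14 with a tested probe, 1 was lower in high RFI pigs and 2 were higher, together 21.4% against 16.4% of all tested probes, with a median line difference of −0.050. TMOD4, which caps actin filaments in skeletal muscle, was lower (−0.15, adjusted p = 0.035 in limma). TNNT2, the troponin T of heart and developing muscle, was higher (1.05, SE 0.31, adjusted p = 0.016), as was TPM4, a tropomyosin of the cytoskeleton (0.19, adjusted p = 0.041). TNNT2 had a within-group SD of 1.11. The heart markers TNNI3 and NPPA had line differences of 0.17 and −0.10 and did not pass.

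Genes that accompany fast troponins in fast fibres had negative line differences at 10 of 10 main probes, with a median of −0.11, and 3 were lower past the threshold. Over all tested probes 9.85% were lower, and above percentile 99 of signal, where 7 of the 10 lay, 38.2% were, with a median of −0.11. The count and median of these genes were thus near those of bright probes in general. The 3 were ATP2A1, the calcium pump of the fast sarcoplasmic reticulum (−0.19, adjusted p = 0.017 in limma), CASQ1, which stores calcium there (−0.13, adjusted p = 0.036), and the myosin heavy chain MYH2 (−0.12, adjusted p = 0.026). Of the 8 genes of slow fibres with a tested probe, CASQ2, the calsequestrin of slow fibres and heart, was higher (0.72, SE 0.19, adjusted p = 0.0060) and CA3, a carbonic anhydrase of slow fibres, was lower (−0.15, adjusted p = 0.022). They are 2 of 8, and 16.4% of all tested probes passed. The other 6 did not pass, and the median of the 8 was 0.072. For the diet, 0 genes of these lists passed in limma.

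Markers of other cell types differed between lines at single genes. FABP4, 1 of 4 adipocyte markers, was higher in high RFI pigs (0.32, adjusted p = 0.031 in limma), as was COL1A1, 1 of 3 fibroblast markers (0.37, adjusted p = 0.015). The other adipocyte markers, ADIPOQ (0.20), PLIN1 (0.12) and LEP (−0.0010), did not pass, nor did the fibroblast markers COL3A1 (0.24) and DCN (−0.059). Of the 5 skeletal muscle markers, TTN was lower (−0.26, adjusted p = 1.4e-05). ACTA1 (−0.060), CKM (−0.095), DES (−0.083) and MB (0.18) did not pass. Over all tested probes 16.4% passed. The summed level of the adipocyte markers, in multiples of the geometric mean signal of the array, ranged from 19.1 to 39.4 in low RFI HF pigs and from 23.3 to 57.0 in high RFI HF pigs. In the LF groups it ranged from 15.7 to 50.4 in low RFI pigs and from 25.2 to 50.5 in high RFI pigs. That of the fibroblast markers ranged from 187 to 345 and from 233 to 351 in the low and high RFI pigs on the HF diet, and from 195 to 357 and from 172 to 365 on the LF diet. The ranges of all groups overlapped. Of the markers of endothelium (3), leukocytes (3) and red blood cells (2 with a tested probe), 0 passed. The part of these cell types in the troponin differences was not tested.

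The genes most like the slow and the fast troponin means over the 48 pigs were looked for among 17917 probes of other named genes, as a description. With the slow mean, MYH7, the slow myosin heavy chain, had r = 0.968, and its other 8 probes had r from 0.857 to 0.946. ATP2A2, the calcium pump of slow fibres, had r = 0.872, and its other 20 probes from 0.538 to 0.871. Between them came probes named GAK (r = 0.957), TMPRSS11D (r = 0.920) and TBP (r = 0.896). The 3 other TBP probes had r from −0.15 to 0.077, and GAK and TMPRSS11D had no other tested probe, so each of these 3 names rests on 1 probe. With the fast mean, the 5 genes were ACTA1, the actin of skeletal muscle (r = 0.880), MYOZ1, a protein of the Z disc (r = 0.875), MYL1, a light chain of fast myosin (r = 0.854), MYH1, a fast myosin heavy chain (r = 0.853), and CKM, the muscle creatine kinase (r = 0.847). CYTB (r = 0.846), MYH2 (r = 0.844) and ACTA2 (r = 0.839) came next, close to CKM, so the 5 were not set apart from the genes that follow. Each of these r is the highest among the probes of its gene. The other probes had r from 0.613 to 0.830 for ACTA1 (16 probes), from 0.412 to 0.705 for MYOZ1 (3), from 0.633 to 0.853 for MYL1 (15), from 0.235 to 0.786 for MYH1 (7) and from 0.685 to 0.807 for CKM (10). Taken on the deviations from the group means, r was 0.966 for MYH7 and 0.893 for ACTA1. With O8757 in the slow mean, the same 5 names led in the same order.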

How the data were processed

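Gene expression was measured in longissimus muscle of 48 pigs on one-colour Agilent arrays, 1 per pig, 12 per group. The deposited scanner files hold spot intensity values per the file headers, with processed signals that the scanner software had corrected for background within each array, and flags for spots well above background, saturated or outlying. The authors also deposited a table of log2 values, filtered by spot quality. Each of its 48 columns has a median of 0, so arrays had been centred on their median. The submitters' processing notes name R 2.10.0.

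Here, log2 processed signals without outlier spots were averaged per probe, kept for probes well above background on at least 12 arrays, and centred on each array's mean over these probes. Group means were fitted in limma 3.58.1 (R 4.3.3) with a shared spread, and contrasts were adjusted by Benjamini-Hochberg over all 42125 tested probes (threshold 0.05). The script was tested on simulated data. Correlations and figures used Python 3.11.15. The number of arrays limits the precision, and p-values measure the spread between pigs.

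The members and lists were chosen with earlier results of these data known. All 9 members are described at their main probe, and other probes by counts, ranges and signs. Up to 3 genes past the threshold in each direction are named from the list of 19 thin filament genes, all those past it from the slow and fast fibre lists, and the 5 genes most like each troponin mean. Some genes that ranked after the 5 for the fast mean are named too. Other scalings, background corrections, filters, batch terms, the test without moderation and the deposited table were tried as alternatives. Leaving out the brightest array or the repeated probes and A_72_P070111, and taking the other TNNC1 probe, were added after seeing the data. Gene names are those of the array design.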

Additional observations from a re-analysis of the deposited data

How the results depend on the processing

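The number of the 62 probes lower in the high RFI line was 12. It was 4 after quantile normalization, 4 without the filter on dim probes and 20 with slide as a block. Between 9 and 16 passed under the other alternatives. The 3 TNNT3 probes A_72_P535015, A_72_P538200 and A_72_P574589 passed in all 11 alternatives that refit the arrays. So did A_72_P070111 of TNNC2, the opposite-strand probe. On the HF diet the count of 4 became 1 after quantile normalization, 2 with normexp background correction, 1 without the filter and 2 without the array of the highest median signal. On the LF diet the count of 3 became 0 after quantile normalization and 0 without the filter. The diet and interaction counts were 0 in every alternative run. TNNI2 passed in 10 of 12 alternatives and not after quantile normalization (−0.036, adjusted p = 0.33 in limma) or without the filter (−0.14, adjusted p = 0.099). The TNNT3 main probe passed with slide as a block (−0.14, adjusted p = 0.040) and as the mean of all probes of the gene (−0.20, adjusted p = 0.0011). Signs turned only for differences that never passed. After quantile normalization the line difference became 0.086 for TNNT1, 0.019 for TNNC1, 0.055 for TPM3 and 0.0016 for TPM1, and the diet difference became −0.0049 for TNNC1 and −0.0085 for TNNC2. With normexp, the line difference of TNNT1 became 0.0012, and without the array of the highest median signal that of TNNI1 became −0.000345. As the mean of all probes of the gene, the line difference became 0.023 for TPM3 and −0.011 for TPM2, and the diet difference −0.12 for TNNC1. At the other TNNC1 probe the line difference was 0.082 and the diet difference −0.24, and r between the slow and fast troponin means was −0.213. Of 109 line values under alternatives 96 kept their direction and side of the threshold, as did 105 of 109 diet values. Where quantile normalization moved a value, the cause was not tested. No paired analysis was possible because the labels do not tie pigs across groups.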
